A study of Mus musculus with 24 samples.

Results

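Interferon-response genes were followed in fluorescence-sorted supporting cells from mouse fetal gonads. The 49 genes were listed by name as known members of the response, with earlier results of these data at hand. All were found by symbol among the 32040 genes of the deposited tables, 48 under the listed symbol and Ddx58 under its newer symbol Rigi. A total of 47 passed the filter on low counts, and Mx1 and Zbp1 did not. The data were 24 libraries of polyadenylated RNA, in 8 groups of 3. Pre-granulosa cells of XX gonads carried the Tg(Enh8-mCherry) transgene, and Sertoli cells of XY gonads came from the SOX9-IRES-GFP line. Each was collected at 4 embryonic stages, named by day: E11.5, then E12.5, E13.5 and lastly E15.5. No treatment is described, and each sex came from 1 reporter line, so that sex, mouse line and fluorophore cannot be told apart in any difference between XX and XY. The labels do not say whether the 3 libraries of a group came from separate litters, so p-values measure only the spread between these libraries, which may be technical.

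Interferons are secreted signals of antiviral defence. Type I interferons bind a receptor made of IFNAR1 and IFNAR2, and the kinases JAK1 and TYK2 then pass the signal to a complex with STAT2 and IRF9 that binds interferon-stimulated response elements. The genes it switches on block viral entry, translation and replication, and many of them are expressed at a low level without infection. Type II interferon acts at gamma-activated sites and is a strong inducer of immunity-related GTPases and antigen-processing genes.

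Total counts per library ranged from 11275251 to 37256881. The sorted cells carried the markers of their label. The summed level of 6 pre-granulosa markers, in TPM (the authors' measure of transcript abundance, scaled for gene length and depth), lay between 166.6 and 1030 in XX libraries and between 0.87 and 19.5 in XY libraries. That of 6 Sertoli markers lay between 27.4 and 152.6 TPM in XX against 709.9 to 8071 TPM in XY. Markers of other cells were not evenly spread. The sum of 14 immune markers averaged 499 TPM in XX at E11.5 and 111, 94.02 and 74.2 TPM at the later stages, whereas no XY library exceeded 6.08 TPM. The defining leukocyte gene Ptprc averaged 3.87, 0.743, 0.647 and 0.443 TPM in XX in stage order, and at most 0.0833 TPM in an XY group. XX E11.5 libraries differed from each other, with erythroid sums from 5291 to 55810 TPM. The part of these cells in the results was not tested, and fewer cells of a type and less RNA per cell cannot be told apart in bulk RNA.

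The promoters of 3 members with a large late rise in XX, and of Ifitm1, which took another course, are shown for the element by which the response is usually defined. They were picked from the members with the largest XX minus XY folds at E15.5, not by the late rise. The core of the interferon-stimulated response element was searched as GAAANNGAAA on both strands, in windows from 250 bases before to 50 bases after each RefSeq start (GRCm38.p6, the assembly that mm10 in the submitters' processing notes also names). It was present for 20 of the 38 members with a window (52.6%), against 3.99% of all 27025 genes in the table. The gamma-activated site, searched as TTCNNNGAA on both strands, was present for 13 of 38 (34.2%) against 9.55%. The 160 bases before the start are printed 5′ to 3′ on the plus strand, on which these 4 genes lie. Cores are in capitals and are minus-strand matches, so they read as the reverse complement of the motif above. In Ifit1 they began 104 and 85 bases before the start, in Ifit3 156 and 122 bases before it, and in Ifit3b 154 bases before it, with a further core at 188 bases that lies outside the stretch printed. The stretches are chr19:34640729-34640888 (Ifit1), chr19:34583369-34583528 (Ifit3), chr19:34607797-34607956 (Ifit3b) and chr7:140967916-140968075 (Ifitm1). For Ifit3, Ifit3b and Ifitm1 the start used lies inside the annotated gene, which begins upstream at 34583119, 34607530 and 140967429. No window covered those outer positions, so cores there were not searched for.
Ifit1: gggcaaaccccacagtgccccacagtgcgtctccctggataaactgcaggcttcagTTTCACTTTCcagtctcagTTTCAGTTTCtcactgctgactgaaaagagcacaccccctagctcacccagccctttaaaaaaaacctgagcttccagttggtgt
Ifit3: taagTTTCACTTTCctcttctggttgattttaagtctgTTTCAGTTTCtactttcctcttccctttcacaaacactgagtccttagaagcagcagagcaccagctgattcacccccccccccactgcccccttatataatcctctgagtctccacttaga
Ifit3b: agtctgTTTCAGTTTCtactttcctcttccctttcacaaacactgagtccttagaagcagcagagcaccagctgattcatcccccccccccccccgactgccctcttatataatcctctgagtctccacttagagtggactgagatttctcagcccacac
Ifitm1: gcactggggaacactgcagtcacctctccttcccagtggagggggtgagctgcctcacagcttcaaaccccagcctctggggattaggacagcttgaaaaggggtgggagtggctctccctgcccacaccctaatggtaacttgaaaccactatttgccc
In Ifitm1 the core's letters did not occur in the window, which says nothing of the factor itself. Ifi44 and Ifitm3 were picked by the same rule and are not printed. Ifi44 rose in XX from E13.5 to E15.5 with no core in its window. The Ifitm3 window held 2 cores, and Ifitm3 was not called over that step. On GRCm38, Ifit1, Ifit2, Ifit3 and Ifit3b lie within 99.5 kb of chromosome 19 (34550550 to 34650009), and the 3 Ifitm members within 55.9 kb of chromosome 7 (140954837 to 141010744). How the authors' counting divided reads between the closely related Ifit3 and Ifit3b is not given in the sources used here, nor is the use of strand, and 16 of the 49 members overlap another annotated gene, so those values are uncertain to that extent.

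The interferon-response genes were mostly expressed at a low level, and most of them were highest in the oldest XX cells. A mean of at least 1 TPM in some group was reached by 43 members and in all 8 groups by 21. A mean of 10 TPM was reached in some group by 22 members and in every group by 8, and 6 members stayed under 1 TPM in all groups. The highest mean was in XX E15.5 for 31 members, in XX E11.5 for 10, in XX E12.5 for 5, in XY E15.5 for 2 and in XY E12.5 for 1. The summed level did not follow this order: it averaged 4689, 5976, 5722 and 4571 TPM in XX from E11.5 to E15.5 and 3782, 1807, 1468 and 1620 TPM in XY. In XX most of the sum came from Ifitm1 and Ifitm2, so it does not show the level of the other members. These 2 genes averaged 2582 and 2051 TPM in XX at E13.5, and 1106 and 2090 TPM at E15.5.

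**Figure D1:**
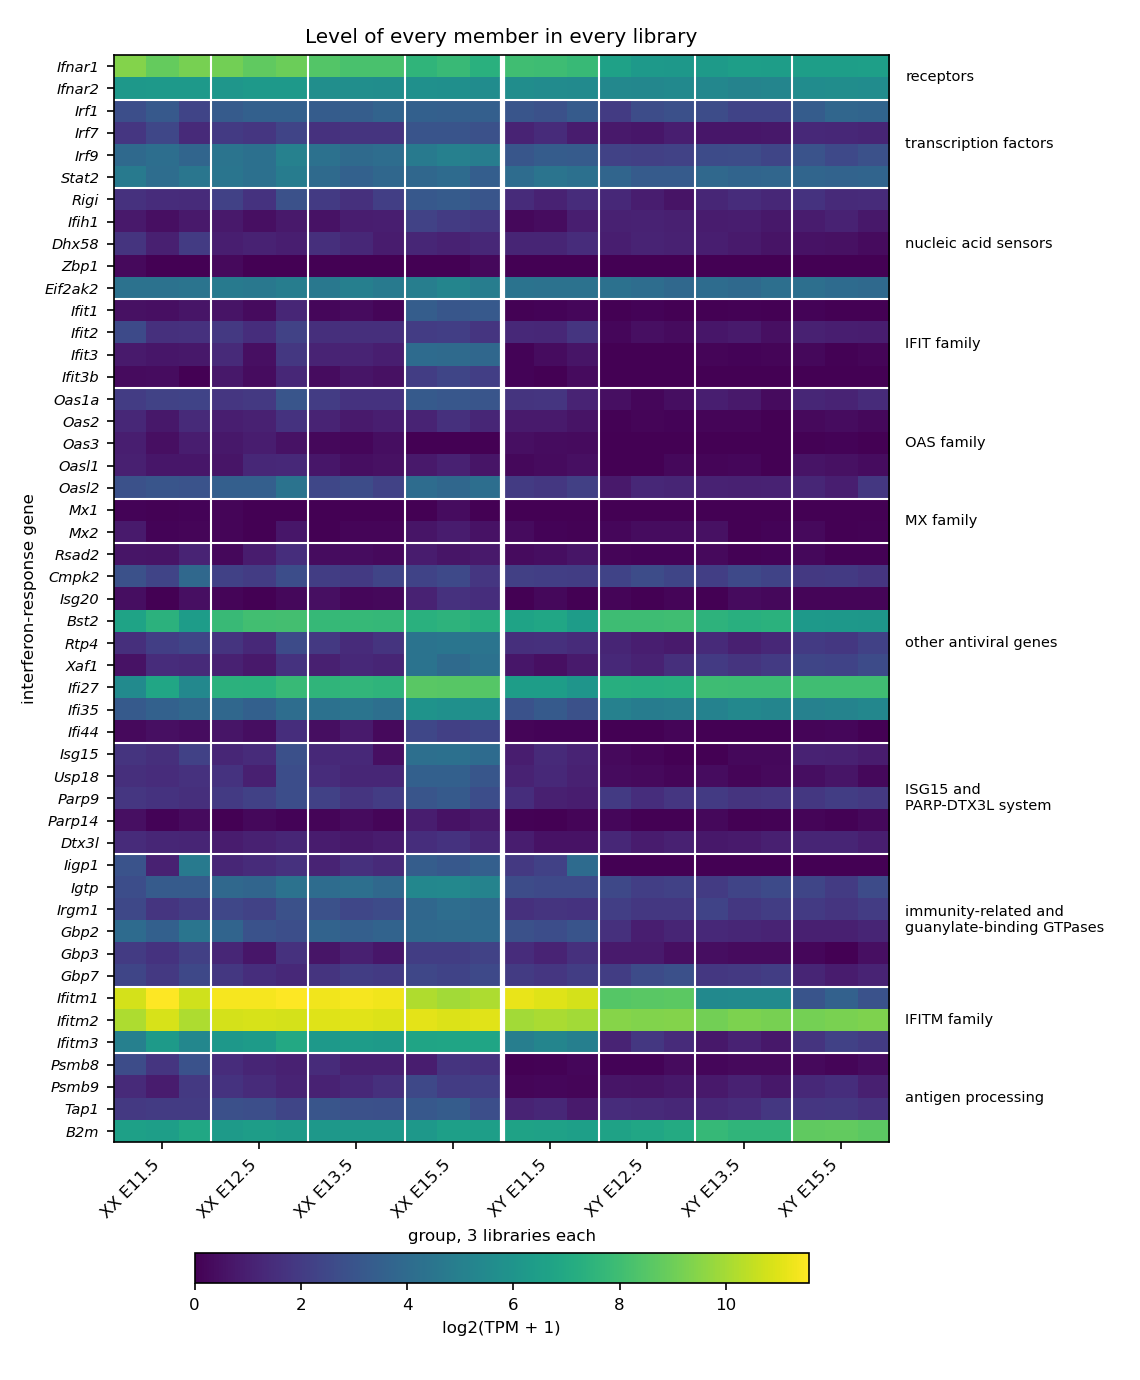
Level of each of the 49 members (rows, grouped by role) in each of the 24 libraries (columns, 3 per group), as log2(TPM + 1) on the colour scale. The mean of the 3 XX E15.5 columns is the highest for 31 members, Ifitm1 darkens across the XY stages, and B2m brightens there.

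More members were higher than lower in XX at each stage, and the number was largest at E15.5. A gene was called when its adjusted p (edgeR's quasi-likelihood test, Benjamini-Hochberg over all 16190 genes tested) was under 0.05. At E11.5, 23 members were called higher in XX and 0 lower, while 42% of all genes tested were called, 21.4% higher and 20.6% lower. At an unadjusted p under 0.05, 32 members were higher and 0 lower. DESeq2 called 27 members, the fit of the 6 E11.5 libraries alone 11, and the fit of genes with at least 10 counts in every library 15 of 24 tested. At E12.5, 33 were higher and 3 lower, against 62.1% of all genes called, 30.5% higher and 31.5% lower. At E13.5, 33 were higher and 2 lower, against 66.1%, 32.8% and 33.3%. At E15.5, 41 were higher and 2 lower, against 69.4%, 34.9% and 34.4%. As shares of the 49, members were called at 46.9%, 73.5%, 71.4% and 87.8%, so that the excess over all genes lay in the higher calls. The members were chosen with earlier results of these data known. This excess, like those between stages below, is therefore no independent evidence. The median log2 difference of the members tested was 0.92, 1.59, 1.86 and 2.34 from E11.5 to E15.5, and that of all genes lay between -0.005 and 0.046. With members that had 1 group at or under 3 counts in every library set to their bound, the medians were 0.87, 1.69, 1.78 and 2.33. The XX minus XY difference changed over the 4 stages for 40 members (edgeR, F test of the interaction), against 70.1% of all genes.

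Of the members, 16 were called higher in XX at all 4 stages, among them both receptor chains, Irf7, Irf9, Ifit1, Ifit2, Ifitm2, Ifitm3 and the antigen-processing genes Psmb8, Psmb9 and Tap1. Of all genes tested, 8.49% were. From E12.5 on the number was 28, against 18% of all genes, which added Ifitm1, Ifit3, Ifit3b, Isg15, Usp18, Oas1a, Oas2, Iigp1, Eif2ak2, Ifi44, Rigi and Rsad2. The sign of the called difference changed between stages for Gbp7, Ifi35 and Oas3. Ifi27 was called in none of the 4 contrasts. The immune marker sum was higher in every XX library than in any XY library, and its part in these differences was not tested. Over the XX step from E13.5 to E15.5 it went from 92.6, 105 and 84.9 TPM to 67.6, 82.1 and 72.8 TPM, while 28 members rose.

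**Figure D2:**
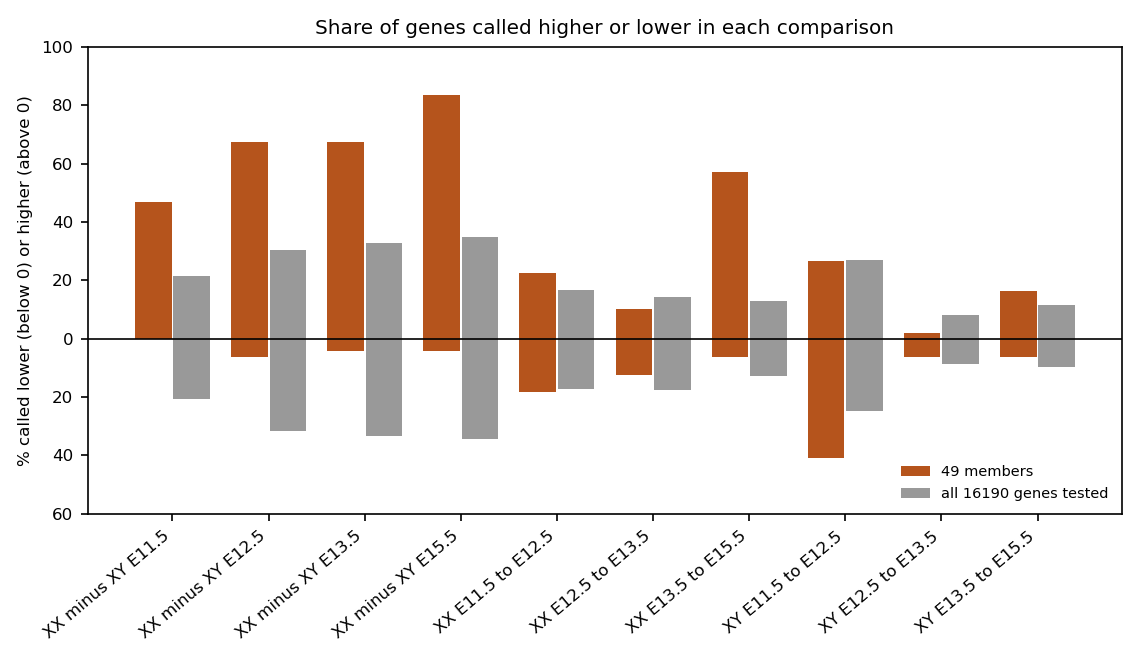
Percentage of the 49 members (brown) and of all 16190 genes tested (grey) called higher, above 0, or lower, below 0, in each of 10 comparisons (edgeR, adjusted p under 0.05). The members' higher calls stand more than 20 percentage points above the background in the 4 XX minus XY contrasts and in the XX E13.5 to E15.5 step, and their lower calls are furthest above it in the XY E11.5 to E12.5 step.

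Between stages, the members moved most in the first XY step and in the last XX step. In XX, 11 members rose and 9 fell from E11.5 to E12.5, against 34% of all genes called, 16.7% higher and 17.3% lower. From E12.5 to E13.5, 5 rose and 6 fell, against 31.7%, 14.2% and 17.4%. From E13.5 to E15.5, 28 rose and 3 fell, against 25.6%, 12.8% and 12.8%, with a median log2 change of 1.21 against 0 for all genes. In XY, 13 rose and 20 fell from E11.5 to E12.5, against 51.9%, 27.1% and 24.8%. Then 1 rose and 3 fell, against 16.6%, 8.02% and 8.62%, and over the last step 8 rose and 3 fell, against 21.3%, 11.51% and 9.79%. The 4 calls of the second XY step ranged from 2, without XY E12.5 replicate 2 or 3 or any 1 XY E13.5 library, to 8, without XX E11.5 replicate 2, and the 11 of the last XY step were 18 in the fit of its 6 libraries alone. The step itself differed between the sexes for 28, 8 and 17 members in turn, against 40.1%, 25.2% and 25.8% of all genes. The first XX step depended on the libraries used: it called 12 members without XX E11.5 replicate 3, and 0 in an edgeR fit of its 6 libraries alone, where 15 of 43 members had an unadjusted p under 0.05.

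The late XX rise included effectors that had been near 0 before. For Rsad2 and Iigp1, by contrast, an earlier XX mean had been higher than that of E15.5. Rsad2 averaged 0.953 TPM at E12.5 and 0.713 TPM at E15.5. Iigp1 averaged 10.9 TPM at E11.5, with libraries from 1.09 to 24.9 TPM, and 9.36 TPM at E15.5. All 28 members that rose had groups that did not overlap. That was common among rising genes: of all genes tested, 2074 rose, and 1935 of these had groups that did not overlap. Of the 28, 10 reached a mean of 10 TPM at E15.5 and 3 (Mx2, Parp14 and Rsad2) stayed under 1 TPM. Of these 28, XY also rose for Ifi44, Irf7 and Isg15, fell for Gbp7 and was not called for the other 24. A step not called in XY is no test of a difference between the sexes. By the test of the difference, the steps differed for Gbp3, Gbp7, Ifi35, Ifih1, Ifit3, Igtp, Irgm1, Rtp4 and Xaf1. That test was not called for the rest of the 28, among them Ifit1, Ifit3b, Usp18, Ifi44, Rigi, Oas1a and Oasl2. By family, 3 of 4 IFIT members, 5 of 5 in the ISG15 and PARP-DTX3L system, 5 of 6 GTPases and 7 of 9 other antiviral genes rose, against 12.8% of all genes. The counts were 2 of 5 for the OAS family (with 1 lower), 2 of 5 for the sensors, 2 of 4 for the transcription factors, 1 of 4 for antigen processing and 1 of 2 for the MX family. None of the 3 IFITM members or the 2 receptor chains rose, and 1 of each fell.

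Ifit1, whose product binds viral RNA without a proper cap, stood at 0.16, 0.25 and 0.12 TPM in the XX E13.5 libraries and at 9.72, 7.55 and 8.26 TPM at E15.5. Its XY libraries held between 0 and 0.07 TPM from E12.5 on. The XX groups did not overlap, and the rise was 5.43 ± 0.61 (log2 change ± SE; edgeR, adjusted p = 2.99e-06), or 43.1-fold. At E15.5 XX exceeded XY at least 97-fold, against the floor of 3 counts per library. Ifit3, of the same family, rose from 1.2, 1.21 and 0.96 TPM to 15.6, 15.1 and 13.6 TPM, by 3.71 ± 0.49 (edgeR, adjusted p = 3.21e-05). Its XY E15.5 libraries held 0.19, 0.05 and 0.11 TPM. Ifit3b reached 3.29, 4.26 and 3.43 TPM in XX at E15.5 and was at 0 in all 3 XY libraries of that stage, which makes XX at least 30.8-fold higher. Ifit2 was not called over this step, at 1.9, 1.96 and 1.95 TPM and then 3.18, 3.45 and 2.43 TPM, though it was called higher in XX at every stage.

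The ISG15 system took the same course in XX. ISG15 is a small ubiquitin-like protein attached to other proteins, and USP18 removes it and also restrains the receptor. Isg15 rose in XX from 1.5, 1.54 and 0.37 TPM at E13.5 to 17.9, 18.6 and 15.4 TPM at E15.5, by 3.86 ± 0.54 on the log2 scale (edgeR, adjusted p = 3.87e-05). In XY it rose as well, to 1.12, 1.06 and 0.87 TPM, at least 3.32-fold from libraries at the floor, and the test of the difference between the steps was not called. Usp18 rose in XX from 1.77, 1.39 and 1.36 TPM to 10.7, 10.8 and 7.47 TPM, by 2.65 ± 0.44 (edgeR, adjusted p = 0.000175), and XY held 0.35, 0.57 and 0.19 TPM. The ubiquitin ligase gene Dtx3l and its partner Parp9 rose from means of 0.78 and 3.09 TPM to 1.86 and 7.16 TPM. All 5 members of this system, Parp14 included, were called higher in XX at E15.5.

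Other antiviral genes rose to higher levels. Rtp4, a restriction factor of flaviviruses, went from 2.77, 1.64 and 2.38 TPM to 20.03, 21.5 and 20.5 TPM in XX, a log2 change of 3.20 ± 0.38 (edgeR, adjusted p = 4.76e-06). In XY it went from 1.56, 1.04 and 1.47 TPM to 2.88, 2.62 and 3.68 TPM, which was not called. Xaf1, an antagonist of the apoptosis inhibitor XIAP, went from 1, 1.49 and 1.26 TPM to 20.1, 14.9 and 19.1 TPM in XX, by 3.48 ± 0.45 (edgeR, adjusted p = 1.32e-05). At E13.5 all 3 XY libraries, at 2.95, 2.37 and 2.89 TPM, lay above the XX libraries, and at E15.5, at 4.41, 4.04 and 5.23 TPM, all lay below. The step differed between sexes by 2.32 ± 0.53 for Rtp4 and by 2.74 ± 0.60 for Xaf1 (log2; edgeR, adjusted p = 0.00296 and 0.00197).

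Ifi35, whose product binds NMI, changed places between the sexes. At E11.5 XX libraries held 8.81, 10.9 and 13.3 TPM against 6.49, 8.57 and 6.35 TPM in XY. XY then rose to 32.9, 27.9 and 30.2 TPM at E12.5, by 2.29 ± 0.18 (log2; edgeR, adjusted p = 7.5e-10), while XX stood at 13.7, 10.6 and 16.5 TPM. At E15.5 the XX libraries, at 59.97, 54.3 and 53.2 TPM, all lay above the XY libraries, at 32.3, 35.5 and 39.8 TPM. The last XX change of 1.53 ± 0.17 (edgeR, adjusted p = 2.27e-06) exceeded the XY change by 1.61 ± 0.24 (adjusted p = 5.11e-05).

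Ifi44 rose in XX from 0.33, 0.8 and 0.22 TPM to 4.54, 3.51 and 4.32 TPM, by 3.60 ± 0.58 (log2; edgeR, adjusted p = 0.000149), and XY held 0.11, 0.16 and 0.03 TPM at E15.5. Ifi27, a gene of a mitochondrial membrane protein, was abundant in both sexes. It stood at 388, 373 and 360.4 TPM in XX and 261, 258 and 257 TPM in XY at E15.5; the libraries did not overlap, but the difference was not called. Bst2 encodes tetherin, which holds budding viruses at the cell surface. It stood at 162, 177 and 151 TPM in XX and 76.2, 69.9 and 67.5 TPM in XY at E15.5, after a last XY step in which it fell by 1.23 ± 0.19 (log2; edgeR, adjusted p = 9.16e-05). Its fall over the XY step before lost the call when any 1 library of that step was left out (edgeR, adjusted p from 0.0543 to 0.121). Cmpk2 was called higher in XX at E11.5 alone, at 6.19, 4.2 and 13.78 TPM against 3.26 to 3.58 TPM. The call was lost in the fit of the 6 E11.5 libraries alone (edgeR, adjusted p = 0.0636). The immune sum of the XX E11.5 libraries had the same order (496, 265 and 734 TPM), and the part of immune cells was not tested.

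Of the nucleic acid sensors, Ifih1 and Rigi rose late in XX. Ifih1 encodes MDA5, a sensor of long double-stranded RNA, and its XX libraries went from 0.47, 0.89 and 0.97 TPM at E13.5 to 3.89, 2.98 and 2.71 TPM at E15.5, by 2.27 ± 0.33 (log2; edgeR, adjusted p = 5.7e-05). XY libraries held 0.87, 0.88 and 0.68 TPM and then 0.83, 1.14 and 0.7 TPM, and the steps differed by 2.67 ± 0.47 (edgeR, adjusted p = 0.000303). Rigi encodes RIG-I, a sensor of viral RNA ends, and rose from 2.95, 2.06 and 3.48 TPM to 8.11, 8.94 and 7.29 TPM in XX. Eif2ak2 encodes PKR, the kinase that stops translation when it meets double-stranded RNA. It was called higher in XX from E12.5 on, with 30.3, 37.9 and 28.6 TPM against 17.8, 15.54 and 14.4 TPM at E15.5 (1.13 ± 0.11, edgeR, adjusted p = 1.12e-08). Dhx58 was called in no step within a sex, and Zbp1 did not exceed 0.22 TPM in any library.

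The OAS enzymes make the messenger that activates RNase L. The family as listed here also holds the OAS-like genes Oasl1 and Oasl2. All 5 members of the list were called higher in XX at E12.5 and E13.5. Oasl2, an OAS-like gene, had 10.4, 10.4 and 20.4 TPM in XX and 0.74, 1.47 and 1.3 TPM in XY at E12.5 (3.68 ± 0.33, edgeR, adjusted p = 4.65e-09). It then held 4.53, 5.54 and 3.84 TPM in XX at E13.5 and 16.2, 13.7 and 17.2 TPM at E15.5. Oas1a reached 8.75, 7.79 and 7.21 TPM in XX at E15.5, against 1.33, 1.25 and 1.7 TPM in XY.

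Oas3 was the OAS member called lower over the late XX step, in which Oas1a and Oasl2 rose and Oas2 and Oasl1 were not called. It fell from 0.18, 0.15 and 0.33 TPM at E13.5 to at most 0.02 TPM at E15.5, at least 2.98-fold. Its XY libraries held 0 TPM at E12.5 and E13.5 and no more than 4 counts at E15.5, so the call in favour of XY at that stage rests on very few counts. Of the myxovirus genes, Mx2 reached 0.55, 0.84 and 0.49 TPM in XX at E15.5, and Mx1 was at 0.3 TPM in 1 XX E15.5 library and at 0 in the other two.

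**Figure D3:**
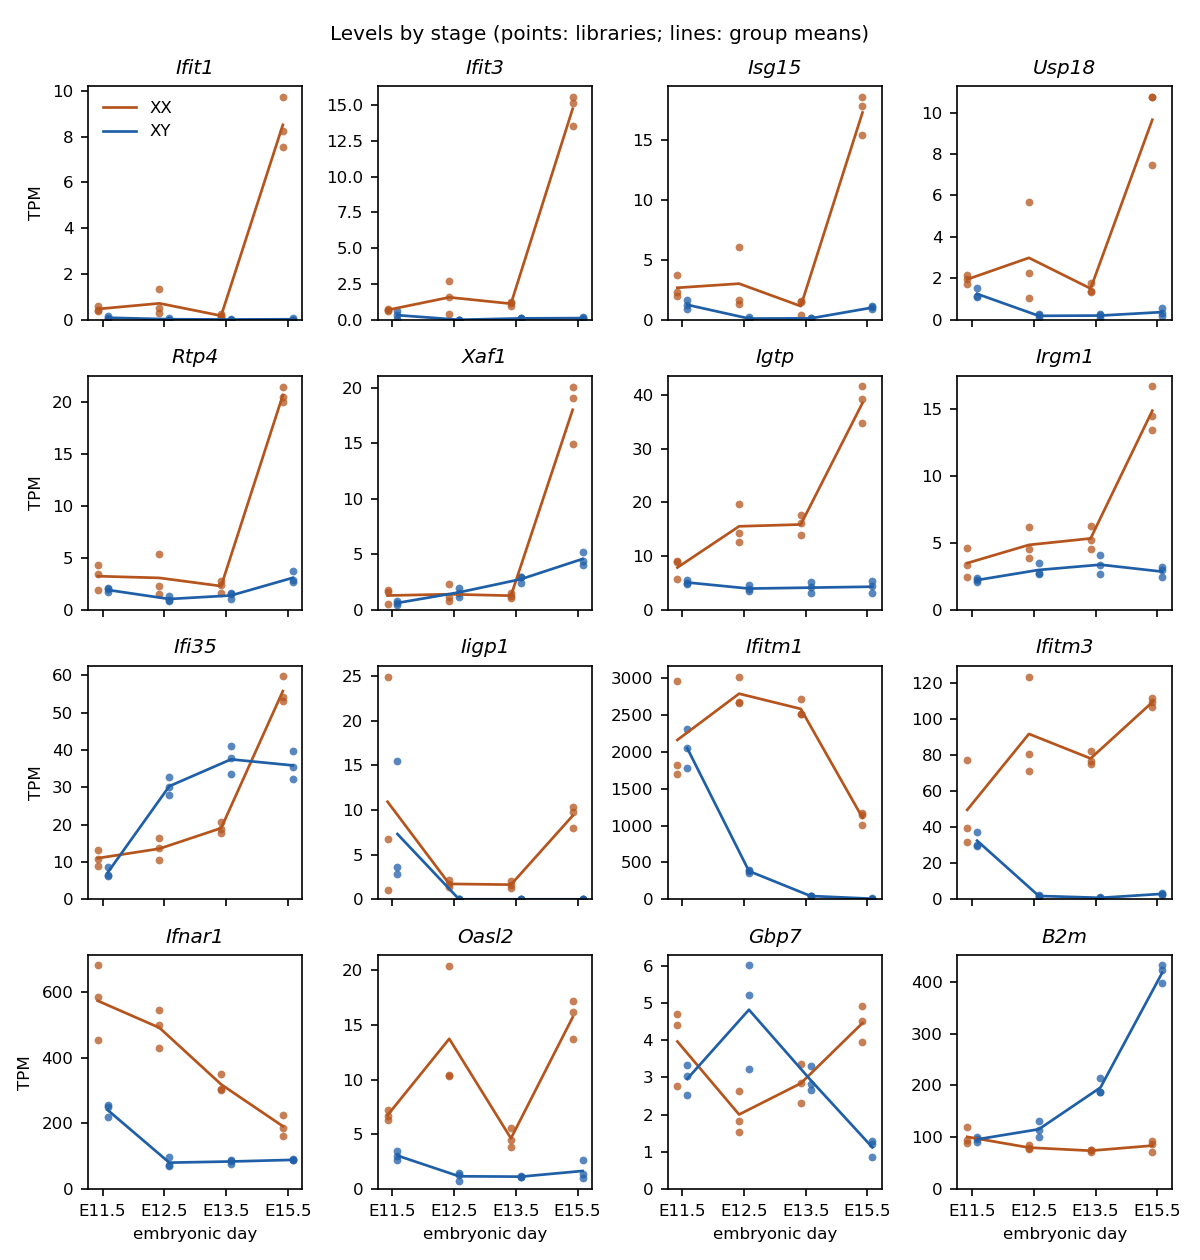
TPM of 16 members (linear axes, each with its own scale) against embryonic day in XX (brown) and XY (blue), with 1 point per library and lines through the means of 3. Ifit1, Ifit3, Isg15, Usp18, Rtp4 and Xaf1 rise in XX between E13.5 and E15.5, Ifitm1 and Ifitm3 fall in XY between E11.5 and E12.5, and B2m rises in XY.

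All 6 members among the GTPases, which attack the membranes around intracellular microbes, were called higher in XX at E15.5. Igtp stood at 39.3, 41.7 and 34.8 TPM in XX and at 4.42, 3.06 and 5.32 TPM in XY at that stage, a difference of 3.24 ± 0.25 (log2; edgeR, adjusted p = 2.27e-10). At E13.5 its XX libraries had held 16.2, 17.7 and 13.9 TPM. Irgm1, a regulator of the other GTPases, stood at 13.4, 16.8 and 14.5 TPM against 2.94, 2.42 and 3.17 TPM at E15.5 (2.43 ± 0.21, edgeR, adjusted p = 1.52e-09). Both genes had XX and XY libraries far apart. Gbp2, a guanylate-binding protein gene, was called higher in XX at all 4 stages, at E15.5 with 14.4, 14.95 and 15.7 TPM against 1, 1.02 and 1.26 TPM (3.86 ± 0.30, edgeR, adjusted p = 2.71e-10).

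Gbp7 was called lower in XX at E12.5, at 2.64, 1.83 and 1.54 TPM against 3.23, 5.2 and 6.02 TPM, and higher at E15.5, at 4.51, 3.96 and 4.91 TPM against 1.29, 0.86 and 1.21 TPM. Iigp1 was at 0 in all 9 XY libraries from E12.5 on. At E11.5 the XY libraries had held 2.84, 3.64 and 15.46 TPM and the XX libraries 6.75, 1.09 and 24.9 TPM, so that the groups overlapped and replicate 3 was highest in both. At E15.5 Iigp1 stood at 9.74, 7.97 and 10.4 TPM in XX, at least 99-fold above the XY floor.

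The IFITM genes, which encode membrane proteins that keep viruses from fusing, differed widely between the sexes. Ifitm1 was among the most abundant members, with 1820, 2961 and 1702 TPM in XX and 2315, 2057 and 1776 TPM in XY at E11.5, where the sexes overlapped. XY then held 362, 391 and 395 TPM at E12.5, 43.3, 44.8 and 45.8 TPM at E13.5 and 6.9, 11.1 and 6.53 TPM at E15.5. The log2 changes per XY step were -2.21 ± 0.20, -3.13 ± 0.21 and -2.49 ± 0.24 (edgeR, adjusted p = 1.31e-08, 7.91e-09 and 3.55e-07). No library of a later XY stage reached one of the stage before. XX stayed at 2675, 2668 and 3019 TPM and at 2519, 2719 and 2507 TPM before a fall to 1171, 1005 and 1142 TPM at E15.5 (-1.23 ± 0.20, edgeR, adjusted p = 0.000136). At E15.5 the XX level was 148-fold the XY level.

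Ifitm3 fell in XY from 29.8, 37.5 and 30.4 TPM at E11.5 to 1.24, 2.66 and 1.71 TPM at E12.5, by 3.92 ± 0.36 on the log2 scale (edgeR, adjusted p = 1.18e-08). In XX it rose over the same step, from 31.99, 77.5 and 39.4 TPM to 71.3, 80.5 and 124 TPM, and the steps differed by 4.68 ± 0.45 (edgeR, adjusted p = 7.35e-08). Ifitm2 was called higher in XX at all 4 stages, with 2140, 2008 and 2121 TPM against 569.8, 603 and 636 TPM at E15.5 (1.86 ± 0.15, edgeR, adjusted p = 8.7e-10). The 3 neighbouring genes thus kept different levels in XY, where Ifitm2 stayed abundant and the others did not.

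**Figure D4:**
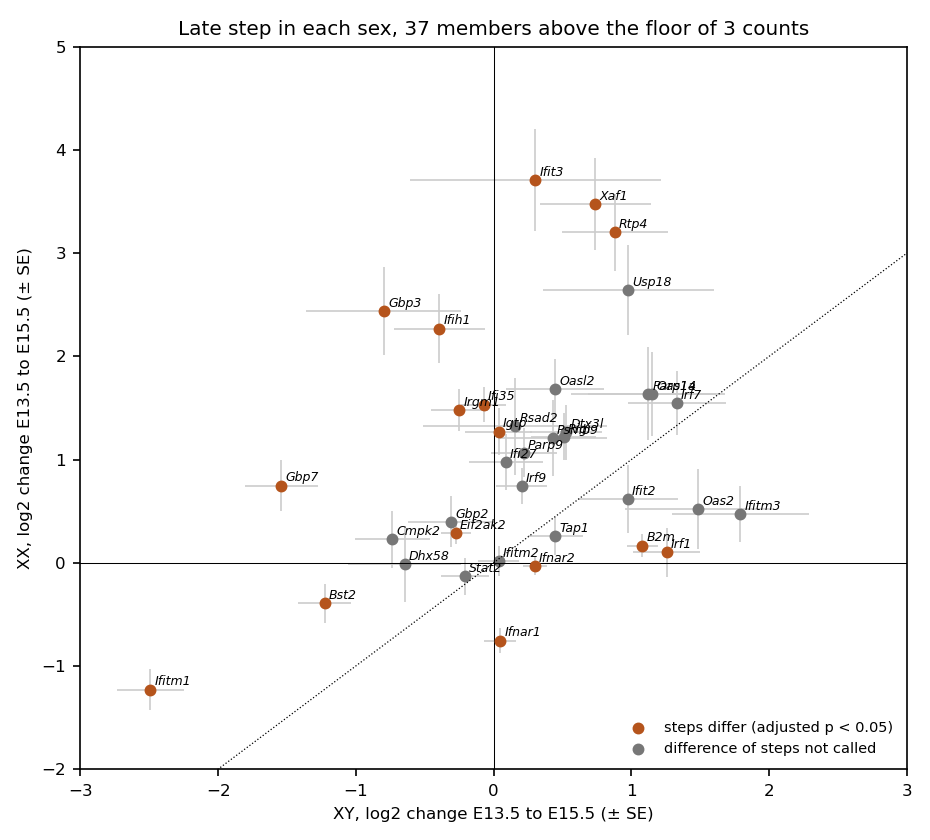
Log2 change from E13.5 to E15.5 in XX (vertical) against XY (horizontal), with bars of ± SE, for the 37 members above the floor of 3 counts in both sexes. The 16 brown points are members whose steps differed between the sexes (edgeR, adjusted p under 0.05), and the dotted line marks equal change. Ifit3, Xaf1 and Rtp4 lie far above it, and B2m, Irf1 and Ifnar1 below.

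The early XY fall reached the effectors too. From E11.5 to E12.5, Ifit2 fell from 1.52, 1.41 and 2.4 TPM to 0.16, 0.39 and 0.26 TPM (-2.40 ± 0.37, edgeR, adjusted p = 1.66e-05). Oas1a fell from 2.38, 2.45 and 1.19 TPM to 0.37, 0.14 and 0.35 TPM (-2.61 ± 0.49, edgeR, adjusted p = 0.000143), and Usp18 from 1.16, 1.51 and 1.08 TPM to 0.26, 0.21 and 0.1 TPM (-2.98 ± 0.57, edgeR, adjusted p = 0.000169). The 5 OAS members and the 3 IFITM members were all called lower over this step. Of the 20 members that fell (24.8% of all genes did), 18 had groups that did not overlap. The same held for 3844 of the 4009 genes that fell among all tested. Of the 20 members, 6 were at or under 3 counts in every XY E12.5 library. The 13 that rose over the same step, a share like the 27.1% of all genes, included B2m, Ifi35, Bst2, Psmb9 and Tap1. Over this step the XY sum of interstitial markers went from 363 to 9.7 TPM and that of surface epithelium markers from 24.01 to 0.79 TPM, and the part of those cells in the fall was not tested.

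The receptor and its transcription factors did not all move with the effectors. Ifnar1 declined in XX from 681, 454 and 585 TPM at E11.5 to 187, 227 and 160.2 TPM at E15.5. XY libraries held 255, 249 and 219 TPM at E11.5 and between 71.53 and 97.76 TPM at the later stages, below every XX library of the same stage. Over the late XX step Ifnar1 fell by 0.76 ± 0.12 (log2; edgeR, adjusted p = 0.000103), opposite to the 28 members that rose. Ifnar2 stood at 54.9, 53.4 and 48.9 TPM in XX and 47.8, 50.3 and 47.9 TPM in XY at E15.5, where the libraries overlapped in TPM but the difference in counts was called.

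Irf9, the DNA-binding part of the complex, stood at 26.4, 31.8 and 28.9 TPM in XX and 6.83, 4.86 and 6.39 TPM in XY at E15.5 (2.28 ± 0.18, edgeR, adjusted p = 5.59e-10). Irf7, which amplifies interferon production, stood at 7.14, 6.93 and 6.28 TPM against 1.49, 1.47 and 1.32 TPM and rose over the last step in both sexes. Both were higher in every XX library than in any XY library of that stage. Stat2 was called higher in XX only at E12.5 of the 4 stages, and it held 13.6, 15.48 and 10.1 TPM in XX and 12.7, 11.7 and 12.1 TPM in XY at E15.5. Irf1, a main factor of type II responses, rose in XY from 5.37, 4.07 and 4.09 TPM to 9.39, 13.1 and 12.1 TPM over the last step (1.26 ± 0.24, edgeR, adjusted p = 0.000682), and XX held 10.6, 10.2 and 10.3 TPM at E15.5.

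Antigen-processing members split. B2m, the light chain of MHC class I, rose in XY over every step, from 99.7, 97.1 and 90.8 TPM at E11.5 to 214, 187 and 188 TPM at E13.5 and 422, 433 and 397 TPM at E15.5. XX libraries stayed between 70.73 and 119 TPM. The E15.5 difference was -2.26 ± 0.12 (log2, XX minus XY; edgeR, adjusted p = 4.96e-13). Tap1, part of the peptide transporter of the endoplasmic reticulum, went the other way, at 8.14, 9.38 and 5.81 TPM in XX and 2.58, 2.67 and 2.09 TPM in XY at E15.5. The immunoproteasome gene Psmb8 was called higher in XX at every stage, and at E11.5 it held 5.53, 2.42 and 6.61 TPM against 0 to 0.15 TPM (at least 36.2-fold). Among the XX E11.5 libraries Psmb8 was lowest in replicate 2, as the immune sum was (496, 265 and 734 TPM), and the part of immune cells was not tested.

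Genes of the same pathway outside the 49 were read from a list of 80, of which 79 were found and 63 passed the filter. Of the interferon genes, 10 were read. Ifna1, Ifna2, Ifna4, Ifne, Ifng, Ifnl2 and Ifnl3 had 0 counts in all 24 libraries, where a count of 0 allows up to 3 counts each, and Ifnb1 had 1 count in 1 XX E15.5 library. Ifnz reached at most 0.46 TPM in a library. Ifnk, the interferon kappa gene, averaged 1.67, 1.533 and 1.65 TPM in XY from E12.5 on, with at most 31 counts in a library, and was called lower in XX than in XY at each of these stages. Of the receptors and kinases outside the members, 2 were called higher and 5 lower in XX at E15.5. Tyk2 stood at 2.64, 3.35 and 2.41 TPM in XX against 10.6, 11.4 and 10.7 TPM in XY (-2.11 ± 0.16, edgeR, adjusted p = 1.9e-10).

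Of the other induced genes in that list, 22 of 29 were tested. At E15.5, 15 were called higher and 1 lower in XX, against 34.9% and 34.4% of all genes, and over the late XX step 11 rose and 1 fell, against 12.8% and 12.8%. Ube2l6, the enzyme that passes ISG15 on to its targets, stood at 258, 243 and 245 TPM in XX and 23.7, 25.5 and 26.2 TPM in XY at E15.5 (3.28 ± 0.18, edgeR, adjusted p = 9.83e-13). Gbp6 rose in XX from 2.8, 1.97 and 2.04 TPM to 12.1, 10.9 and 12.97 TPM (2.46 ± 0.37, edgeR, adjusted p = 7.52e-05). Antigen-processing genes of the list went both ways at E15.5, with 3 called higher and 5 lower in XX. Over the whole list, the calls higher and lower in XX were 24 and 8, 30 and 14, 26 and 17, and 30 and 18 in stage order. The shares of all genes called higher were 21.4%, 30.5%, 32.8% and 34.9%, and those called lower 20.6%, 31.5%, 33.3% and 34.4%. The list was chosen with earlier results of these libraries known, so its direction is no independent evidence.

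The members that rose late in XX included genes with and without the promoter core. Of the 20 members with a core in the window, 12 rose from E13.5 to E15.5 and 17 were higher in XX at E15.5. Of the 18 with a window but no core, 9 rose and 16 were higher. The median log2 change over the late XX step was 1.25 with a core and 0.93 without. Xaf1 and Ifi35, which rose, held no core in the window, while Stat2 and Bst2 held a core and were not called over that step. These counts describe windows around annotated starts and were not tested.

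**Figure D5:**
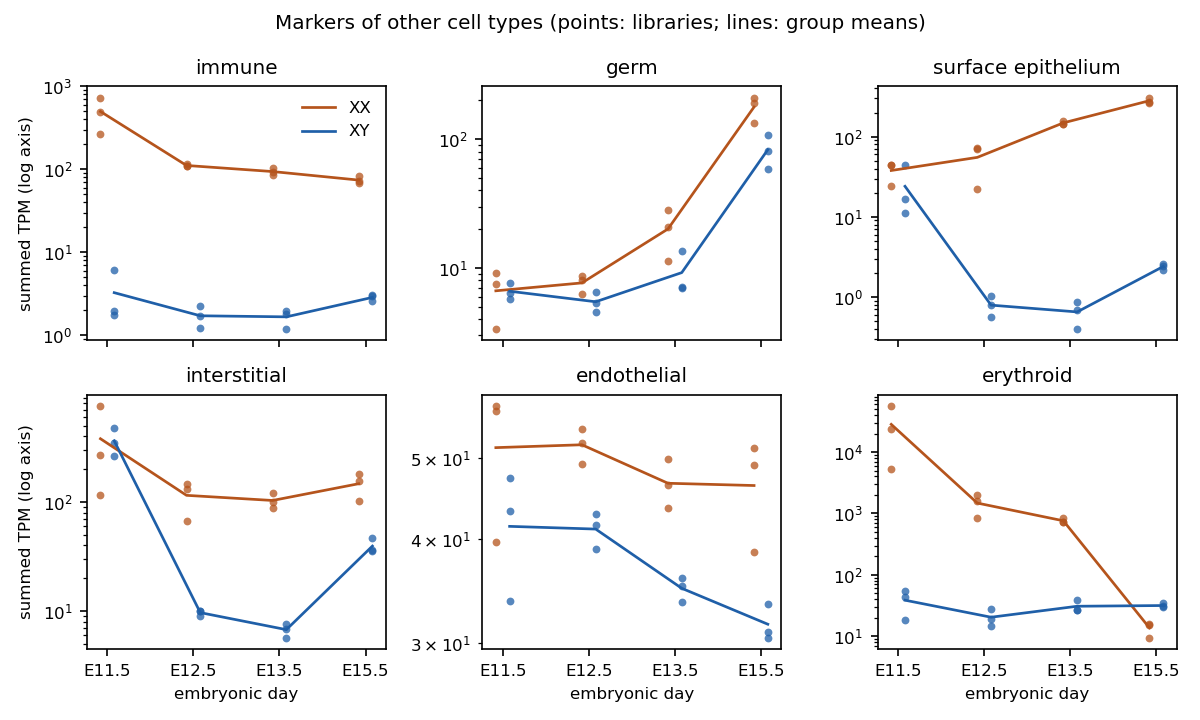
Summed TPM (log axis) of marker lists of 6 other cell types against embryonic day in XX (brown) and XY (blue), with 1 point per library and lines through the means of 3. Immune sums are higher in XX and decline there from E11.5 to E15.5, and germ cell sums rise in both sexes at E15.5.

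Some germ cell markers moved with the late XX rise. At E15.5 the summed level of 10 of them was 133, 191 and 211 TPM in XX and 58.8, 109 and 81.4 TPM in XY, from 11.3, 20.8 and 28.2 TPM and 6.97, 13.49 and 7.16 TPM at E13.5. Surface epithelium markers went from a mean of 149 to 281 TPM in XX and from 0.65 to 2.397 TPM in XY. The XX germ cell sum was carried by the meiotic gene Sycp3, which went from a mean of 2.78 to 104 TPM, while Pou5f1, Dppa3, Dppa4 and Nanog had lower XX means at E15.5 than at E13.5. Steroidogenic and interstitial sums were also higher in XX at E15.5, at means of 255 and 147 TPM against 156 and 103 TPM at E13.5. The steroidogenic sum was carried by Hsd3b1, from a mean of 102 to 237 TPM. Cyp17a1 rose too, while Cyp11a1, Star and Insl3 had lower XX means at E15.5. In the interstitial list, Pdgfra and Nr2f2 had lower means at E15.5, and Tcf21, Col1a1, Lum and Dcn had higher ones. The part of these cells in the late rise was not tested.

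At E12.5, XX replicate 3 was the highest of its group for 32 of the 42 members with at least 1 TPM in a library. Its median ratio to the mean of the other two libraries was 1.5 over the 42. Over the 24 of these that later rose it was 2.02, and replicate 3 was the highest for 22. That library had the lowest surface epithelium, interstitial and erythroid sums of its group, at 22.2, 66.4 and 849 TPM, and the highest pre-granulosa sum, at 1030 TPM. Its immune and Sertoli sums were also the highest of the group, at 116 and 62.3 TPM. The part of cell make-up in its member levels was not tested. Without this library, the E12.5 contrast called 31 members higher and 3 lower, and the XX E12.5 to E13.5 step called 6 members in place of 11.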

How the data were processed

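The authors deposited 2 tables of 24 libraries: estimated counts per gene, of which 17.5% were not whole numbers, and TPM values, which were used as deposited. The submitters' processing notes name the build mm10. Aligner, counting program, annotation and strand are not given in the sources used here. Libraries were grouped by title and description; a second stage label of XX E13.5 replicate 1 reads E12.5, and its title was followed. Counts were rounded and tested with edgeR 4.0.16 (R 4.3.3): filterByExpr (16190 genes kept), TMM, robust quasi-likelihood fit of 8 group means, 16 residual degrees of freedom, Benjamini-Hochberg adjustment over all genes. Log2 differences and folds come from counts, levels are the deposited TPM, which also carry gene length, so their ratios can differ. A fold against a group at or under 3 counts in every library is given against that floor, in CPM averaged over the libraries; floors cover counting error only, since amplified reads without molecular identifiers are not independent molecules. The script was tested on simulated data.

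The members and lists were chosen with earlier results of these data known. Every member could be named; log2 differences with SE and adjusted p are given for called members with at least 1 TPM in the higher group, at most 12 per contrast by smallest adjusted p, and for at most 6 genes of the pathway list per contrast. Step differences between sexes are contrasts of the same fit. Alternatives were DESeq2 1.42.0, its size factors in edgeR, no filter, at least 10 counts in every library, limma 3.58.1 on log2(TPM + 1) and log2(TPM + 0.1) for genes of at least 1 TPM in 3 libraries, limma without that filter, the replicate block, the 6 libraries compared alone, and each library left out. Promoter windows came from RefSeq (GRCm38.p6) by symbol, and 38 of 49 members matched. Not every gene of the pathway list is reported here.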

Additional observations from a re-analysis of the deposited data

Results flagged for a closer look

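The change between neighbouring stages differed between the sexes, by a test of the difference itself (edgeR, adjusted p under 0.05), for 28 members from E11.5 to E12.5, for 8 from E12.5 to E13.5 and for 17 between E13.5 and E15.5. The XX minus XY difference changed over the 4 stages for 40. The shares of all genes were 40.1%, 25.2%, 25.8% and 70.1%, while 57.1%, 16.3%, 34.7% and 81.6% of the 49 members were called. The step in XX minus that in XY is given on the log2 scale. From E11.5 to E12.5 it was 4.68 for Ifitm3, 2.44 for Ifitm1, 2.37 for Oasl2 and 1.59 for Irf9. It was -2.20 for Gbp7, -2.06 for Ifi35, -1.49 for Cmpk2 and -0.88 for B2m, members that moved toward higher XY levels. Over the next step, to E13.5, it was 3.28 for Ifitm1, 1.79 for Gbp7 and -0.95 for Stat2. From E13.5 to E15.5 it was 2.29 for Gbp7 and 1.61 for Ifi35. The value of -9.19 for Oas3 over that step is no measure of size, since all XX E15.5 libraries and 2 of 3 XY libraries held 3 counts or fewer.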

How the results depend on the processing

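Of 3438 values of single members named in a contrast, recomputed under the alternatives, 3359 kept their direction and their call, 79 kept their direction without the call and 0 reversed, and these 79 fell on 26 of 105 values. Counts of members called fell where at least 10 counts were required in every library, which leaves 24 members to test: 15, 19, 16 and 21 for XX minus XY from E11.5 to E15.5, 14 for the late XX step, 19 and 6 for the first and last XY steps, and 21 for the interaction. In fits of only the 6 libraries compared, XX minus XY at E11.5 called 11, the first XX step 0, and the second and last XY steps 8 and 18. Limma called 7 (TPM + 1) and 6 (TPM + 0.1) in the second XX step and 7 in the last XY step without the filter, and DESeq2 called 7 in the second XY step. The cause was not tested for these. With 1 library left out, the counts ranged from 20 to 27, 33 to 37, 32 to 38 and 41 to 44 for XX minus XY. They ranged from 12 to 26, 6 to 12 and 25 to 32 for the XX steps, from 29 to 34, 2 to 8 and 8 to 14 for the XY steps, and from 39 to 41 for the interaction. The first XX step called 12 without XX E11.5 replicate 3. The second XX step called 6 when XX E12.5 replicate 3 or either of XX E13.5 replicates 2 and 3 was left out, and 7 when XX E13.5 replicate 1 was. The second XY step called 8 when XX E11.5 replicate 2 was left out, and 2 when XY E12.5 replicate 2 or 3 or any 1 XY E13.5 library was. With the replicate block, the counts were 24, 36, 34 and 43 for XX minus XY, 20, 10 and 31 for the XX steps, 32, 4 and 11 for the XY steps and 40 for the interaction. The numbers showed no general pairing of libraries across groups, and pairing between single groups was not tested. The correlation between same-numbered libraries had a median of 0.00288 (-0.193 to 0.351), against 0.00351 for other numbers, and 10 of 24 correlated best with their own number. Members under about 1 TPM rest on few counts and their folds are least certain.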
